A study of Homo sapiens with 6 samples.

Results

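The 42 genes described here make up the machinery of macroautophagy and its cargo receptors, and were taken from the deposited gene count table by gene name. All 42 names matched 1 gene each among 58735 genes. Their transcripts were compared between 3 libraries whose treatment label is siC1QBP (siRNA, which degrades a matching transcript, against C1QBP) and 3 whose treatment label is siNC and whose cell type label is wt (siC1QBP in the other group), taken here as the control. Both groups are HUCCT1, an established human cholangiocarcinoma cell line, otherwise without a stated treatment, time point or genotype change, and bile duct is the labelled tissue of both. The result concerns 1 cell line, and whether the replicates were separate cultures is not stated in the labels, and each p-value therefore reflects how these libraries vary, which may be technical.

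Autophagy encloses part of the cytoplasm in a double membrane and delivers it to the lysosome. The ULK kinase complex starts the process, a class III phosphatidylinositol 3-kinase marks the membrane where the autophagosome grows, WIPI proteins read that mark, and ATG2, ATG9 and VMP1 supply lipid. A conjugation system then attaches ATG8 proteins (the LC3 and GABARAP families) to the membrane, and receptors tie cargo, including damaged mitochondria, to them. C1QBP, the siRNA target, is a protein mainly of the mitochondrial matrix, and it has been reported to bind and stabilise the ULK1 protein. Transcript counts measure neither protein stability nor autophagic flux.

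C1QBP itself stood at 59.1, 57.6 and 60.0 CPM (counts scaled to library size with TMM) in siC1QBP replicates 1, 2 and 3, and at 175, 181 and 185 CPM in siNC replicates 1, 2 and 3. In the libraries with this knockdown a minority of the autophagy genes had small changes. Of 40 members tested, 5 rose (ULK1, ATG14, WIPI1, CALCOCO2 and TAX1BP1) and 3 fell (ATG4D, PINK1 and PHB2) at an edgeR adjusted p under 0.05. As these are bulk libraries of 1 cell line, fewer cells of a kind and less RNA per cell cannot be told apart. The other 2, ULK2 and MAP1LC3A, were too low to pass the low-count filter. All 40 fold changes were under 1.5-fold, from 0.794-fold for ATG4D to 1.30-fold for WIPI1. Across all tested genes 14.3% were called, 6.47% higher and 7.84% lower, against 20%, 12.5% and 7.50% of the tested members. The members' share lower was thus close to the background, and their share higher rests on 5 genes. The background depends on the filter. With a mean of at least 10 CPM required, 10.8% of 9775 genes were higher and 9.97% lower, against 11 and 3 of 37 members. The members' median log2 fold change (siC1QBP over siNC) was 0.09, against 0.00 over all tested genes, with 28 members positive and 12 negative.

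The numbers of calls moved with the libraries and the scaling. Without siNC replicate 2 only WIPI1 and PHB2 were called, without siNC replicate 3 ULK1, WIPI1 and PHB2, without siC1QBP replicate 2 TAX1BP1, WIPI1, ATG4D and PHB2, and without siC1QBP replicate 3 ATG14, ULK1, WIPI1, ATG4D, PHB2 and PINK1. Scaled by library size alone, 9 members were higher and 2 lower (1253 and 908 over all genes, against 1005 and 1217 with TMM scaling). WIPI1 and PHB2 kept their calls under each of 17 alternatives, and ULK1 under 15 of 17.

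**Figure D1:**
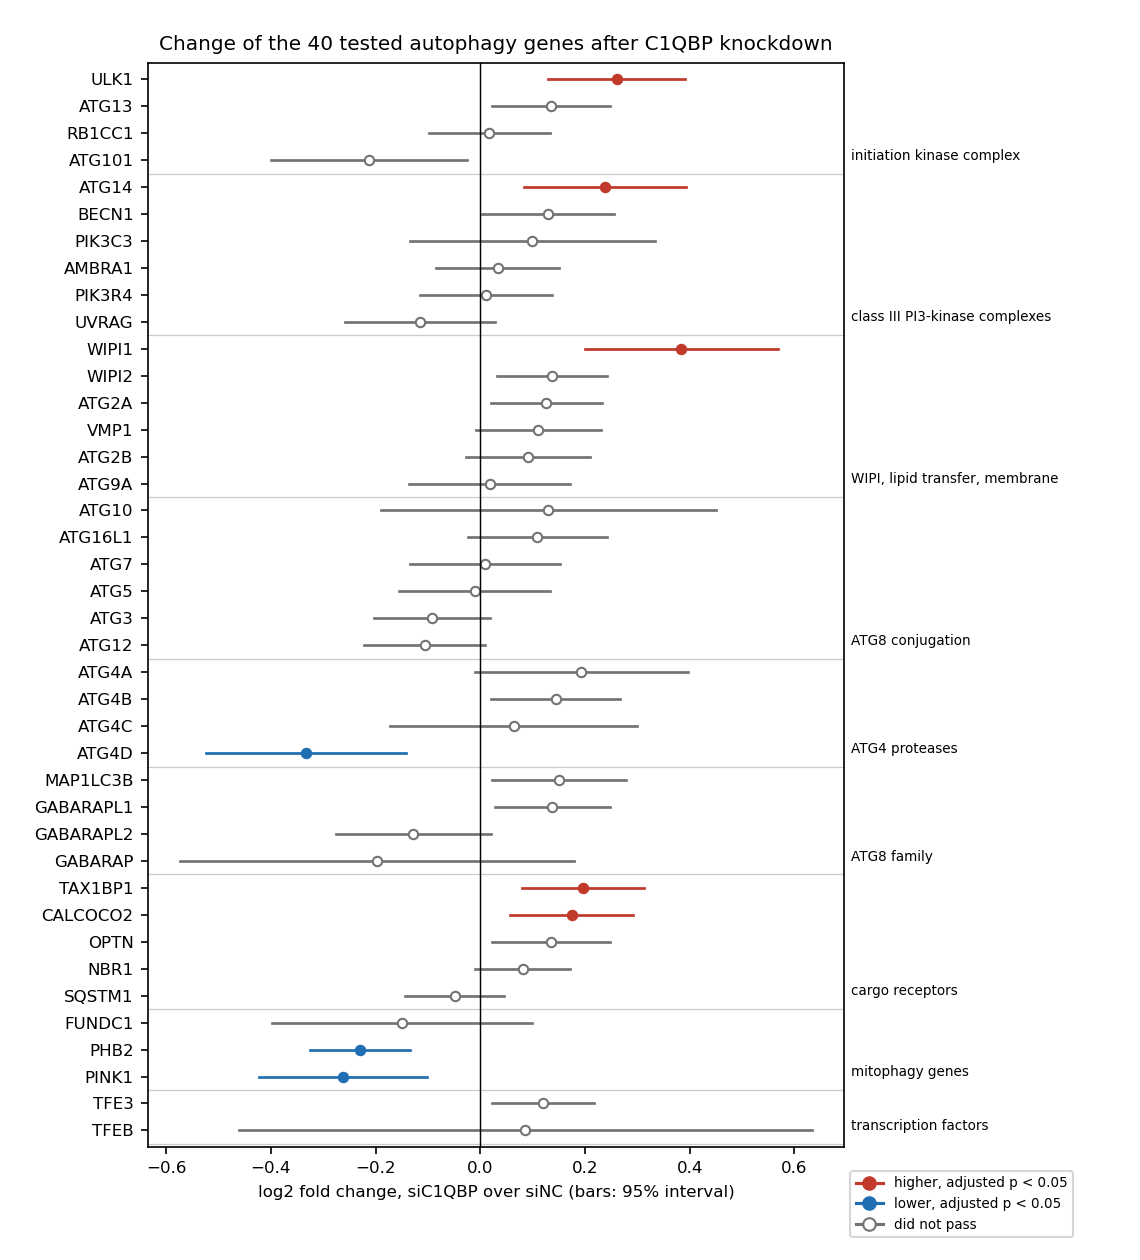
Log2 fold change of the 40 tested autophagy genes, siC1QBP over siNC, grouped by role; points are edgeR estimates and bars 95% intervals. Filled red points are the 5 genes that rose, filled blue points the 3 that fell, and open points the 32 that did not pass; every point lies between -0.33 and 0.38.

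Promoters of members that moved are shown with 1 that did not, because TFEB and TFE3, the transcription factors among the members, are known to bind E-box elements in autophagy and lysosome genes. RefSeq (GRCh38.p14) supplied a promoter of 300 bases for 37 members; RB1CC1, UVRAG, ATG4D, MAP1LC3A and PINK1 are without one here. Each line runs 5′ to 3′ from 100 bases before to 20 bases after the annotated start, and capitals mark the E-box CACGTG, which reads the same on both strands.
ATG14, which rose (chr14:55411811-55411930, minus strand): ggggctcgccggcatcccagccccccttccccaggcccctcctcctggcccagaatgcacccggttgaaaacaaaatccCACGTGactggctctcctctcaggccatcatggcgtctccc
ATG3, which did not pass (chr3:112561943-112562062, minus strand): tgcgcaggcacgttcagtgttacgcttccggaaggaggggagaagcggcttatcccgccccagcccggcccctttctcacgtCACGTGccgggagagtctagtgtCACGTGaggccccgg
WIPI1, which rose (chr17:68457477-68457596, minus strand): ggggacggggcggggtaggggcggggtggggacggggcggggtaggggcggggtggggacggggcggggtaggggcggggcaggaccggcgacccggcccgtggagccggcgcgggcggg
ULK1, which rose (chr12:131894522-131894641, plus strand): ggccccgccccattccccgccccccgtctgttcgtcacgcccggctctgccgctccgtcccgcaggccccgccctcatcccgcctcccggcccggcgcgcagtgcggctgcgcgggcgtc
PHB2, which fell (chr12:6970645-6970764, minus strand): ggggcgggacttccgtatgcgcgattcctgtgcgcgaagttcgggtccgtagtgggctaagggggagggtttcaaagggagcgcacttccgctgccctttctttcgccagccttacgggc

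Each gene had 1 promoter here, the first listed, and other start sites were not searched. For some members, ATG5 and AMBRA1 among them, it lies within the gene, downstream of the gene's 5′ end. An E-box was found in 2 of the 37 promoters (5.41%). The share was 7.44% of all 27305 promoters and 10.02% of the 10626 that belong to tested genes. The ATG14 promoter holds 1, starting 21 bases before the start site. The ATG3 promoter holds 2, starting 18 bases before and at base 6 after the start site. The second is part of TCACGTGA, a longer form found in 1.04% of all promoters and 1.88% of those of tested genes. Among the 37 members this form was in ATG3 alone (2.70%). Of the 5 members that rose, ATG14 is thus the 1 with an E-box in its window. The letters TGATGCAA, bound by ATF4, were found on either strand in 0 of 37 members. They were in 0.923% of all promoters and 0.452% of those of tested genes. GTAAACA, bound by FOXO factors, was found on either strand in 1 of 37 (CALCOCO2). Its shares were 3.41% of all promoters and 2.31% of those of tested genes. Neither motif was thus shared by the members. The 5 windows differ in base composition, from 63.3% G and C in PHB2 to 86.7% in WIPI1. A match describes the letters in this window and is not evidence of binding.

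**Figure D2:**
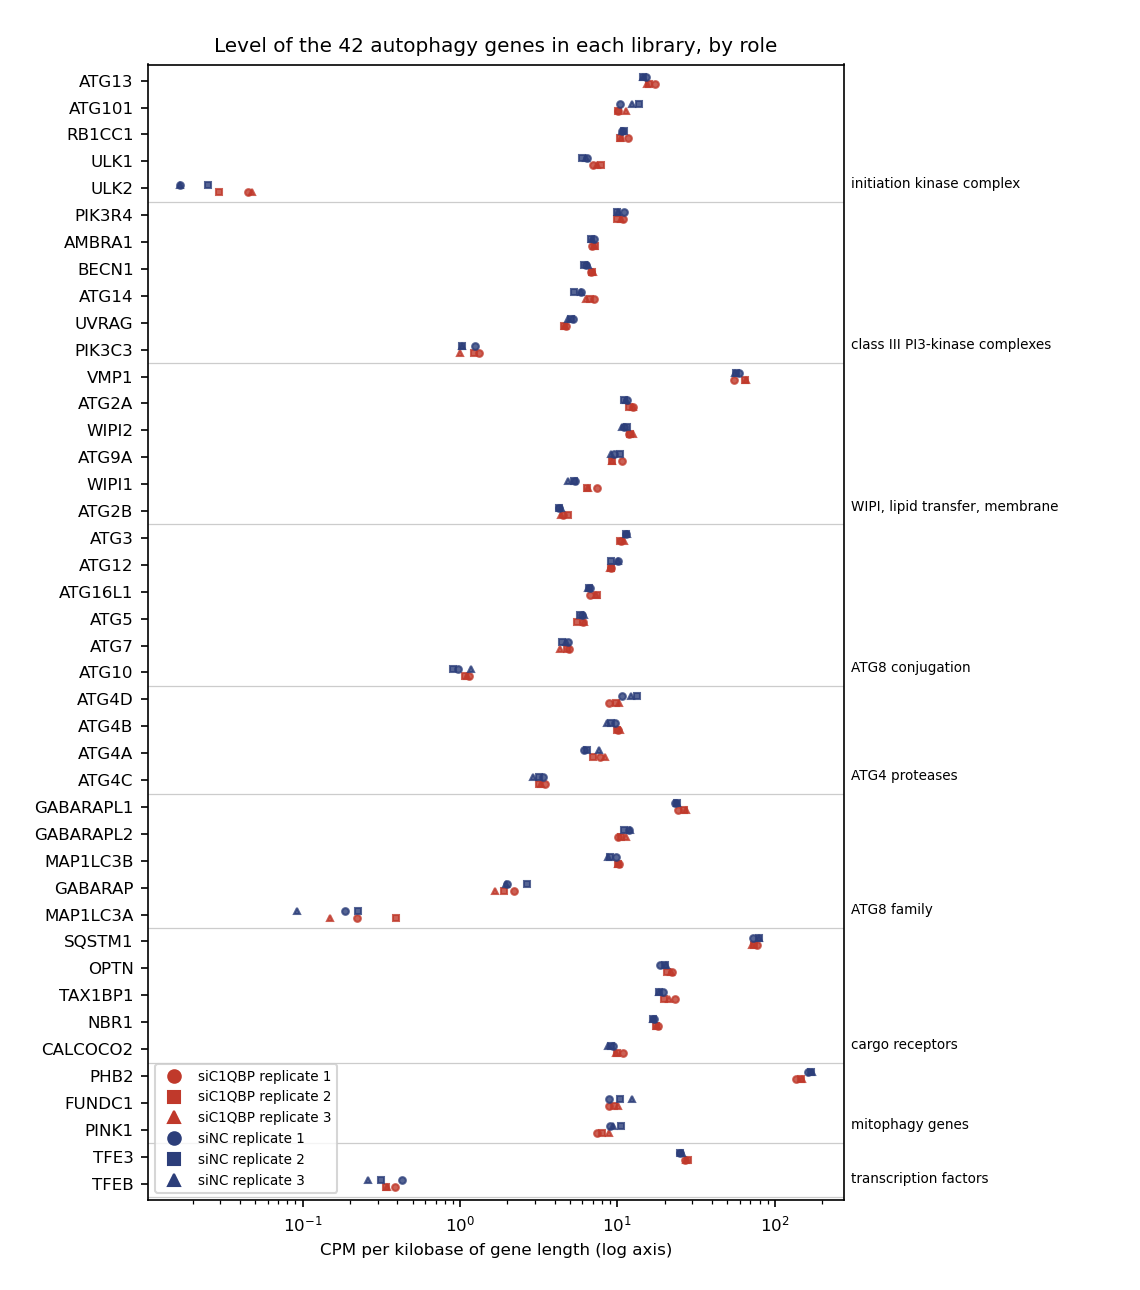
Level of all 42 genes in each library as CPM per kilobase of gene length on a log axis, grouped by role; red points are siC1QBP and blue points siNC libraries, with a marker shape for each replicate. PHB2, SQSTM1 and VMP1 lie highest and ULK2, MAP1LC3A and TFEB lowest, and the distance between genes is far larger than that between groups.

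CPM values are compared between genes only after division by gene length, the merged exon length in the table. Per kilobase, the siNC means ranged from 0.0195 CPM for ULK2 to 168 CPM for PHB2. After PHB2 came SQSTM1 (76.8 CPM per kilobase) and VMP1 (57.2), then TFE3 (25.2) and GABARAPL1 (23.7). In CPM, 8 of the 42 members had a siNC mean over 100 and 6 had one under 10. The 42 genes together took 0.350% to 0.358% of all counts in siC1QBP libraries and 0.342% to 0.343% in siNC libraries.

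In the kinase complex that starts autophagy, ULK1 rose and its partners did not pass. ULK1 (ENSG00000177169; hg38 chromosome 12, 131894651 to 131923167, plus strand), the kinase itself, stood at 53.5, 60.2 and 56.6 CPM in siC1QBP replicates 1, 2 and 3 and at 48.9, 45.5 and 47.9 CPM in siNC replicates 1, 2 and 3. Each siC1QBP library lay above each siNC library. ULK1 rose by 0.26 on the log2 scale (SE 0.06), with an adjusted p of 0.00928 in edgeR. Leaving out siC1QBP replicate 2 or siNC replicate 2 ended the call (adjusted p of 0.0572 and 0.0693 in edgeR). Its paralog ULK2 had 3 to 9 counts per library, or 0.163 to 0.472 CPM, and its siNC mean per kilobase was 0.0195 CPM against 6.23 CPM for ULK1.

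ATG13, the adaptor that holds the complex together and the member of this role with the highest level per kilobase (14.8 CPM per kilobase in siNC), was at 122, 111 and 108 CPM in siC1QBP and at 106, 101 and 102 CPM in siNC libraries. The groups did not overlap, and the difference of 0.14 on the log2 scale (95% interval 0.02 to 0.25) did not pass (edgeR adjusted p = 0.101). The scaffold RB1CC1, also called FIP200, was at 79.6 to 88.8 against 81.1 to 83.6 CPM (log2 fold change 0.02, 95% interval -0.10 to 0.13). ATG101, which stabilises ATG13, was at 32.1, 32.5 and 36.2 against 33.2, 43.8 and 39.7 CPM. Its groups overlapped through siNC replicate 1 (log2 fold change -0.21, edgeR adjusted p = 0.123), and without that library the value was -0.31 with an adjusted p of 0.0186 in edgeR.

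Among the 6 genes of the class III phosphatidylinositol 3-kinase complexes, ATG14 rose and the other 5 did not pass. ATG14 (ENSG00000126775; chromosome 14, 55366392 to 55411858, minus strand), the subunit that directs the kinase to sites of autophagosome formation, stood at 35.9, 33.8 and 32.0 CPM in siC1QBP and at 29.8, 26.9 and 29.5 CPM in siNC libraries. All siC1QBP libraries were above all siNC libraries, and siC1QBP replicate 1 was the highest. ATG14 rose by 0.24 on the log2 scale (SE 0.07), at an adjusted p of 0.0381 in edgeR. This call was among the least stable: it was kept in 9 of 17 alternatives and lost with any library but siC1QBP replicate 3 left out (edgeR adjusted p from 0.0501 to 0.176).

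UVRAG, which takes the place of ATG14 in the complex of later endosomal steps, had the opposite sign. It was at 30.2, 29.1 and 29.5 CPM in siC1QBP and at 33.1, 32.2 and 30.9 CPM in siNC libraries, without overlap, but its difference of -0.11 on the log2 scale did not pass (interval -0.26 to 0.03, adjusted p of 0.285 in edgeR). BECN1, the scaffold shared by both complexes, was at 43.9, 44.4 and 44.6 against 40.5, 39.4 and 41.6 CPM, again without overlap. Its log2 fold change was 0.13 (edgeR adjusted p = 0.163). PSME3, on the opposite strand, shares 4.68% of BECN1's exon bases and had a mean of 240 CPM over all libraries (scaled by library size alone). Reads in the shared bases cannot be told apart here. The kinase subunit PIK3R4, the highest of the role per kilobase (10.4 CPM per kilobase in siNC), was at 53.8 to 58.0 against 53.6 to 59.1 CPM, and AMBRA1 was at 53.2 to 55.0 against 52.0 to 54.4 CPM. The catalytic subunit PIK3C3 was the lowest per kilobase (1.10 CPM per kilobase in siNC), with a gene length of 15198 bases, and had a log2 fold change of 0.10 (95% interval -0.13 to 0.33).

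The largest rise of any member was in WIPI1, and all 6 genes of its role (phosphoinositide readers, lipid transfer and membrane proteins) had positive fold changes. WIPI1 (ENSG00000070540; chromosome 17, 68420948 to 68457513, minus strand) binds the lipid that the class III kinase makes. It stood at 25.1, 21.8 and 22.1 CPM in siC1QBP and at 18.3, 18.0 and 16.6 CPM in siNC libraries. The lowest siC1QBP library was thus above the highest siNC library, and siC1QBP replicate 1 was the highest. On the log2 scale it rose by 0.38 (SE 0.09), or by 0.31 to 0.42 over the alternatives, with an adjusted p of 0.00695 in edgeR. ARSG, a gene on the opposite strand that shares 24.3% of WIPI1's exon bases, had 4.94 CPM in siNC and did not pass (log2 fold change 0.38, edgeR adjusted p = 0.172); since the strand setting of the counting is not given, reads in the shared bases cannot be told apart.

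WIPI2, the paralog that recruits the conjugation machinery, was at 106, 108 and 113 CPM in siC1QBP and at 99.2, 103 and 95.9 CPM in siNC libraries, without overlap (log2 fold change 0.14, edgeR adjusted p = 0.0753). The lipid transfer protein ATG2A was at 98.7, 93.3 and 99.0 against 90.9, 86.1 and 89.8 CPM, and its paralog ATG2B at 66.6, 71.9 and 65.0 against 63.2, 63.4 and 64.5 CPM. Neither had overlapping groups, and neither passed (differences of 0.13 and 0.09 on the log2 scale, edgeR adjusted p = 0.106 and 0.305). ATG9A, the scramblase carried on vesicles, was at 43.9 to 50.8 against 42.8 to 49.0 CPM; it shares 38.8% of its exon bases with AC068946.2, a gene on the same strand that had 0.0545 to 0.384 CPM.

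VMP1, an endoplasmic reticulum scramblase and the highest of its role, shows how far 1 library can move a value. It stood at 381, 448 and 453 CPM in siC1QBP replicates 1, 2 and 3 and at 411, 391 and 385 CPM in siNC libraries, so siC1QBP replicate 1 was the lowest of all 6 and replicates 2 and 3 the highest. Its difference was 0.11 on the log2 scale (edgeR adjusted p = 0.209), and 0.19 without siC1QBP replicate 1 (edgeR adjusted p = 0.000529). The microRNA gene MIR21 lies within VMP1's exons, with 72 shared bases, and had 0 counts; how reads in those bases were assigned is not given in the sources used here.

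None of the 6 genes that attach ATG8 proteins to the membrane passed the test, and their median log2 fold change was 0.00. ATG7 (the E1-like enzyme) was at 38.3 to 43.7 against 39.3 to 42.9 CPM, with a 95% interval of -0.13 to 0.15 on the log2 scale. VGLL4, on the opposite strand, shares 18.1% of ATG7's exon bases and rose (log2 fold change 0.30, edgeR adjusted p = 0.00841). Reads in those shared bases cannot be told apart here, which limits the value of ATG7. ATG5, which joins ATG12, was at 31.6 to 34.8 against 32.7 to 34.9 CPM (-0.15 to 0.13). ATG3, the E2-like enzyme that carries ATG8 and the highest of the role per kilobase (11.3 CPM per kilobase in siNC), was at 64.0, 63.9 and 67.1 CPM in siC1QBP and at 69.1, 69.0 and 69.9 CPM in siNC libraries. Its groups did not overlap, but the log2 fold change of -0.09 did not pass (edgeR adjusted p = 0.262).

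ATG12 had a log2 fold change of -0.11 and ATG16L1, which places the conjugation complex on the membrane, 0.11, with overlapping groups in both (edgeR adjusted p = 0.215 and 0.272). ATG10, the E2-like enzyme for ATG12, was the lowest at 5.88 to 6.22 against 4.91 to 6.43 CPM. RPS23, on the opposite strand, shares 6.86% of ATG10's exon bases. It was far more abundant (mean of 413 CPM over all libraries, scaled by library size alone) and had a log2 fold change of -0.43. Reads in those shared bases cannot be told apart here, which limits the value of ATG10.

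The 4 ATG4 proteases, which trim ATG8 proteins before conjugation and release them afterwards, did not share a direction. ATG4D (ENSG00000130734; chromosome 19, 10543895 to 10553418, plus strand) fell, from 24.3, 30.3 and 27.9 CPM in siNC to 20.1, 22.3 and 23.2 CPM in siC1QBP libraries. The groups did not overlap, and siNC replicate 1 lay nearest to the siC1QBP libraries. This was the largest fall of any member, -0.33 on the log2 scale (SE 0.09), with an adjusted p of 0.0207 in edgeR. It no longer passed once siNC replicate 2 or 3 was left out (adjusted p of 0.134 and 0.0786 in edgeR).

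ATG4B, the protease with the broadest activity, was at 66.6, 65.6 and 68.5 against 64.3, 60.7 and 56.8 CPM, also without overlap but upward (log2 fold change 0.14, edgeR adjusted p = 0.112). The ratio of ATG4D to ATG4B counts was 0.301, 0.339 and 0.339 in siC1QBP and 0.378, 0.4996 and 0.491 in siNC libraries (p = 0.1 in a two-sided exact permutation test, which can go no lower with 3 libraries a group). This pair was chosen after its values had been seen. ATG4A (log2 fold change 0.19, edgeR adjusted p = 0.195) and ATG4C (0.06, 0.758) had overlapping groups. KRI1, on the opposite strand, shares 14.97% of ATG4D's exon bases and stood at 38.6 CPM in siNC and 41.7 CPM in siC1QBP (log2 fold change 0.11, edgeR adjusted p = 0.370).

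No ATG8 gene passed the test. GABARAPL1 was the most abundant per kilobase, at 24.3, 26.6 and 27.2 CPM per kilobase in siC1QBP and 23.2, 23.8 and 24.0 in siNC libraries. GABARAPL2 followed at 11.6 and MAP1LC3B at 9.12 CPM per kilobase (siNC means), and their siNC ranges (11.04 to 12.0 and 8.69 to 9.73) did not overlap. GABARAP (2.20) and MAP1LC3A (0.168) were far lower, so of these 2 LC3 genes nearly all transcripts came from MAP1LC3B.

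In CPM, GABARAPL1 was at 99.3, 109 and 111 in siC1QBP and at 94.96, 97.1 and 98.0 in siNC libraries, and MAP1LC3B at 54.4, 53.4 and 53.6 against 51.7, 47.4 and 46.2. Both had groups that did not overlap, with log2 fold changes of 0.14 (edgeR adjusted p = 0.0898) and 0.15 (0.107). GABARAPL1 was called higher without siC1QBP replicate 1 (edgeR adjusted p = 0.00744) and MAP1LC3B without siNC replicate 1 (0.0493). GABARAPL2 had a log2 fold change of -0.13 (edgeR adjusted p = 0.245) with overlapping groups.

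The value of GABARAP is uncertain. It had only 3.78 to 6.00 CPM, and 30.5% of its exon bases belong also to AC120057.2, a gene on the same strand that had 0 counts in every library, while 25.2% are shared with a gene on the opposite strand. Of all 50-base words in its transcripts, 28.2% also occur in transcripts of other genes, against 4.82% for MAP1LC3B (shared with its copy MAP1LC3B2) and 0.734% for GABARAPL1. How the counting treated reads in shared bases is not given in the sources used here.

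Cargo receptors held the other rises. TAX1BP1 (ENSG00000106052; chromosome 7, 27739331 to 27844564, plus strand), a ubiquitin-binding receptor, stood at 214, 182 and 196 CPM in siC1QBP and at 180, 168 and 168 CPM in siNC libraries. Its groups were separated narrowly, with siC1QBP replicate 2 just above siNC replicate 1. TAX1BP1 rose by 0.20 on the log2 scale (SE 0.06), with an adjusted p of 0.0238 in edgeR. Leaving out siC1QBP replicate 3, or siNC replicate 2 or 3, ended the call (adjusted p of 0.0504, 0.120 and 0.116 in edgeR).

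CALCOCO2 (ENSG00000136436; chromosome 17, 48830988 to 48866522, plus strand), also called NDP52, stood at 90.2, 82.5 and 82.3 against 78.2, 75.4 and 72.4 CPM, again without overlap and with siC1QBP replicate 1 highest. CALCOCO2 rose by 0.17 on the log2 scale (SE 0.06), with an adjusted p of 0.0449 in edgeR, and the call was kept in 8 of 17 alternatives. It was lost with any library but siNC replicate 1 left out (edgeR adjusted p from 0.0588 to 0.192).

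SQSTM1, which encodes p62 and is the most abundant receptor, was at 588, 569 and 549 CPM in siC1QBP and at 555, 605 and 603 CPM in siNC libraries. These groups overlapped, and the difference on the log2 scale was -0.05, within -0.14 to 0.05 (adjusted p of 0.514 in edgeR). With both libraries numbered 1 left out it was -0.12 and was called (edgeR adjusted p = 0.000805). MRNIP, on the opposite strand, shares 20.7% of SQSTM1's exon bases. MRNIP stood at 50.7 CPM in siNC and 55.8 CPM in siC1QBP (log2 fold change 0.14, edgeR adjusted p = 0.240). Reads in the shared bases cannot be told apart here. NBR1, a relative of p62 in function, was at 153, 148 and 150 against 143, 142 and 141 CPM, and OPTN, which also serves in mitophagy, at 115, 106 and 113 against 95.3, 103 and 105 CPM. Both had groups that did not overlap, higher in siC1QBP, but neither passed (0.08 and 0.14 on the log2 scale, edgeR adjusted p = 0.230 and 0.102). Of the 5 receptors, 2 thus rose, 0 fell and 3 did not pass (40% higher, of only 5 genes, against 6.47% of all tested genes).

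Among the 3 mitophagy genes 2 fell and 0 rose (66.7% lower, of only 3 genes, against 7.84% of all tested genes). PHB2 (ENSG00000215021; chromosome 12, 6965327 to 6970825, minus strand), a prohibitin of the inner mitochondrial membrane that also serves as a mitophagy receptor, stood at 340, 366 and 371 CPM in siC1QBP and at 404, 427 and 431 CPM in siNC libraries. The groups were well apart, and in both of them replicate 1 was the lowest. PHB2 fell by 0.23 on the log2 scale (SE 0.05), and its adjusted p of 0.00278 in edgeR was the smallest of any member. Its partner PHB, which is not among the 42, fell to a like extent, by 0.20 on the log2 scale (176 ± 4.75 CPM in siNC and 153 ± 3.30 CPM in siC1QBP, SD, n = 3; adjusted p of 0.00501 in edgeR), and the ratio of PHB2 to PHB counts was 2.39 in siNC and 2.35 in siC1QBP libraries (two-sided exact permutation p = 0.8).

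PINK1 (ENSG00000158828; chromosome 1, 20633455 to 20651511, plus strand), the kinase that accumulates on damaged mitochondria, fell from 43.7, 50.8 and 45.3 CPM in siNC to 35.7, 38.4 and 42.5 CPM in siC1QBP libraries. The highest siC1QBP library was just below the lowest siNC library. PINK1 fell by 0.26 on the log2 scale (SE 0.08), with an adjusted p of 0.0281 in edgeR. It did not pass when siC1QBP replicate 1 or 2 was left out (adjusted p of 0.0534 and 0.0757 in edgeR), nor when siNC replicate 2 or 3 was (0.168 and 0.0663), nor when scaled by library size alone (0.0522). PINK1-AS shares 39.4% of PINK1's exon bases on the opposite strand and had 2.10 CPM in siNC and 2.50 CPM in siC1QBP. FUNDC1, a receptor in the outer membrane, was at 12.3 to 14.2 against 12.5 to 17.4 CPM (log2 fold change -0.15, 95% interval -0.40 to 0.10).

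**Figure D3:**
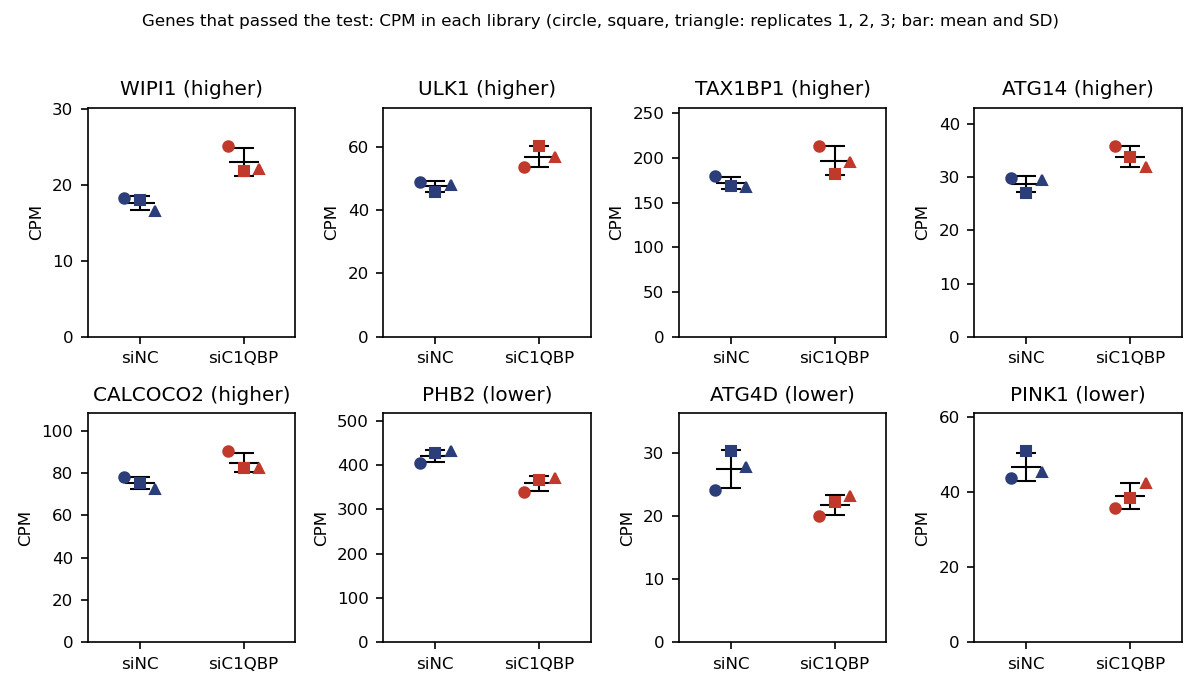
CPM of the 8 genes that passed the test in each of the 6 libraries, with axes from 0; points are libraries (circle, square and triangle for replicates 1, 2 and 3) and bars the mean and SD of each group. In all 8 the groups do not overlap; PINK1 and TAX1BP1 come closest, with 42.5 against 43.7 CPM and 182 against 180 CPM.

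Of the 2 transcription factors that switch on autophagy and lysosome genes, TFE3 was by far the more abundant, at 25.2 against 0.335 CPM per kilobase for TFEB (siNC means). TFE3 was at 115, 120 and 117 CPM in siC1QBP and at 107, 107 and 110 CPM in siNC libraries. The groups did not overlap, but the test was not passed (log2 fold change 0.12, 95% interval 0.02 to 0.22; edgeR adjusted p = 0.0918). TFEB, at 1.47 to 2.42 CPM, gave a wide interval of -0.46 to 0.63.

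Across all 40 tested members, 21 (52.5%) had groups that did not overlap, 16 of them higher and 5 lower in siC1QBP. The share over all 15530 tested genes was 32.6% in either direction. A mean of at least 10 CPM was met by 37 of the 40 members, but by only 9775 genes. The share without overlap at like levels, and by direction, was not computed. Whether the members differ from genes of like level is therefore not shown. Among the 32 members that did not pass, the 95% interval lay within 1.5-fold either way for 31. The exception was TFEB.

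Several library measures moved with these values. The siC1QBP library numbered 1 differed more from the others of its group (chi-square per degree of freedom 6.66 and 6.77, against 2.09 between replicates 2 and 3). It was the highest of 6 libraries in 13 of the 40 members and the lowest in 7. The lowest library was more often siNC replicate 2 (8 members) or siNC replicate 3 (11). Among siNC libraries, replicate 1 lay somewhat apart (3.67 and 3.40, against 2.13 between replicates 2 and 3). Without siC1QBP replicate 1, the members' median log2 fold change was 0.06, with 7 higher and 2 lower. Then 7.30% and 9.48% of all tested genes were called higher and lower. With both groups' libraries numbered 1 left out, 11 were higher and 5 lower, and the calls over all tested genes went up as well, from 2222 to 3330 (9.03% higher and 12.4% lower). Of the cholangiocyte markers, KRT7 was at 3105 to 3226 CPM in siC1QBP and 3683 to 3826 CPM in siNC libraries. KRT19 was at 1628 to 1699 against 1758 to 1961 CPM, and EPCAM at 309.8 to 323 against 313 to 339 CPM. SOX9 and CFTR had the opposite sign: SOX9 was at 62.2 to 68.2 against 55.1 to 60.9 CPM (log2 fold change 0.14, edgeR adjusted p = 0.122), and CFTR rose, at 27.3 to 33.0 against 19.9 to 23.1 CPM (0.47, 0.00192). The 4 hepatocyte markers summed to at most 0.222 CPM and the 4 leukocyte markers to at most 0.5003 CPM, with TTR and CD3E at 0 in every library. The 4 fibroblast markers summed to 8.22 to 12.6 CPM, most of it LUM (6.70 to 11.3 CPM), and the 3 endothelial markers to 2.47 to 3.95 CPM. The part of these differences in the members' changes was not tested.

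Gene length also differed between the members that rose and fell. The 5 that rose had a median length of 7608 bases and the 3 that fell one of 2499 bases. Over all genes called, the medians were 6789 bases for rises and 3309 bases for falls. In the fifth of tested genes with the shortest length 90 rose and 354 fell, and in the fifth with the longest 396 rose and 99 fell. With each library's trend with length removed, the members' median was 0.05, and ULK1, ATG14 and WIPI1 still rose and ATG4D, PINK1 and PHB2 still fell, whereas CALCOCO2 (edgeR adjusted p = 0.101) and TAX1BP1 (0.0530) did not pass. GABARAPL1 and TFE3 were called higher and ATG12 lower there. The median tested gene had 4547 bases. WIPI1, which rose, is shorter (3402 bases), and PINK1, which fell, is longer (4836 bases). The part of gene length in the members' changes was not tested.

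**Figure D4:**
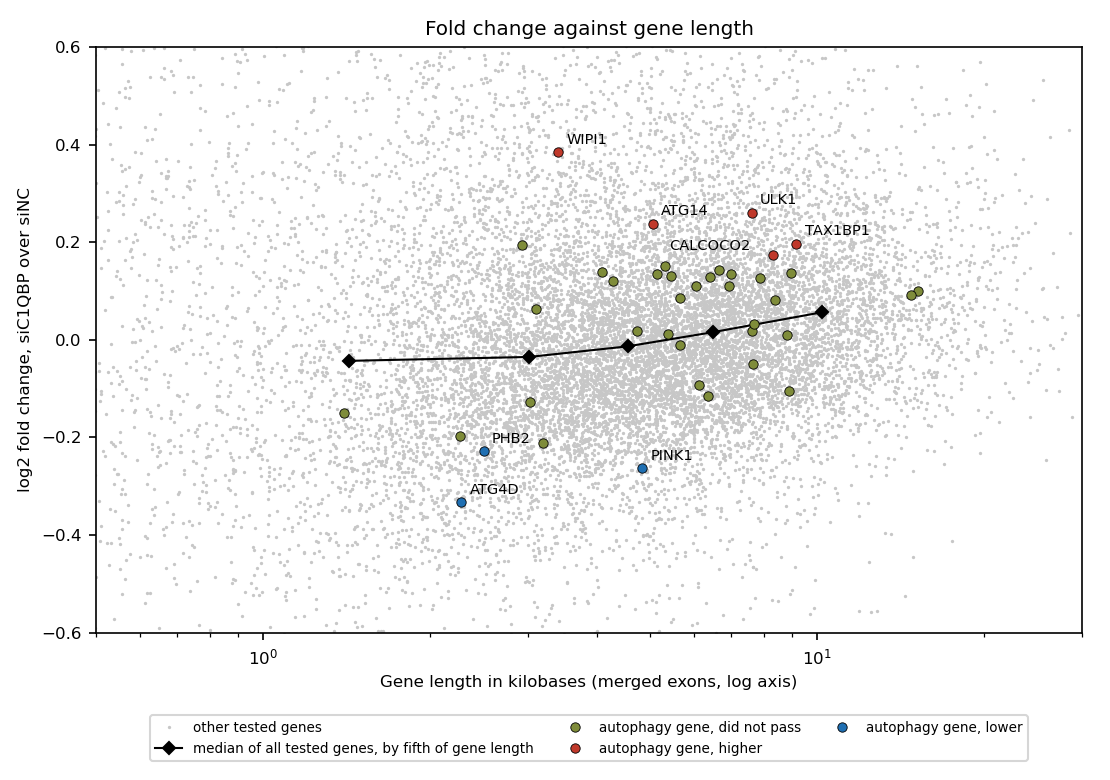
Log2 fold change (siC1QBP over siNC) against gene length in kilobases on a log axis; grey points are all tested genes, of which 1154 lie outside the axes, black diamonds are medians over equal-sized classes of gene length, and coloured points are the autophagy genes. The black line goes from -0.04 to 0.06, with CALCOCO2, TAX1BP1 and ULK1 at the long end and ATG4D and PHB2 at the short end.

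Other genes of the pathway were counted from 7 lists of 106 genes. Of 98 tested, 8 rose and 10 fell (18.4% called, against 14.3% of all tested genes). Of these 18 calls, 6 were kept with each library left out in turn: DDIT4, LAMTOR5, PHB, PPARA, RHEB and SESN2.

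In the list of mTORC1, the growth kinase complex that restrains ULK1, and its upstream control, 3 of 23 tested genes rose and 4 fell (13% and 17.4%, against 6.47% and 7.84% of all tested genes). The activator RHEB fell from 101, 98.8 and 107 CPM to 82.3, 87.4 and 84.9 CPM, a difference of -0.27 on the log2 scale (SE 0.05, adjusted p of 0.00234 in edgeR). The stress-induced inhibitor DDIT4 fell by 0.32 (SE 0.06; edgeR adjusted p = 0.00208), while SESN2, another stress-induced inhibitor, rose by 0.33 (SE 0.07; 0.00472). Chosen here after their values were seen, LAMTOR5 (-0.31) and MLST8 (-0.24) also fell, and TSC2 (0.23) and RRAGC (0.32) rose. MTOR itself, also chosen so, had a log2 fold change of 0.08 and RPTOR of 0.01, and neither passed (edgeR adjusted p = 0.283 and 0.963). TSC2, whose gene length is 19626 bases, had a value of 0.12 with the length trend removed (edgeR adjusted p = 0.238). RRAGC, MLST8 and TSC2 each lost their call with 1 library left out (edgeR adjusted p up to 0.177, 0.113 and 0.118).

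None of the 6 tested subunits of AMPK, the energy-sensing kinase that activates ULK1, passed the test in edgeR, and 1 of them had an unadjusted p under 0.05 there (PRKAB2, 0.14 on the log2 scale, edgeR adjusted p = 0.127). The catalytic subunit PRKAA1 was at 146 to 159 CPM in siC1QBP and 150 to 156 CPM in siNC libraries.

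Of 16 other mitophagy genes tested, 5 fell and 1 rose (31.2% and 6.25%, against 7.84% lower and 6.47% higher over all tested genes). Beside PHB, the phosphatase PGAM5 fell by 0.24 (SE 0.06; edgeR adjusted p = 0.0114). FKBP8 (-0.20), the channel VDAC1 (-0.14) and TOMM7 (-0.36), named after their values were seen, fell too. TOMM7, a small subunit of the outer-membrane import channel, was at 57.1, 90.5 and 90.7 CPM in siC1QBP and at 94.1, 107 and 106 CPM in siNC libraries. BCL2L13, a receptor of the outer membrane, rose by 0.24 on the log2 scale (47.0 ± 1.79 CPM in siNC and 55.7 ± 1.05 CPM in siC1QBP, SD, n = 3; adjusted p of 0.00920 in edgeR). Calls of PGAM5, FKBP8, VDAC1, TOMM7 and BCL2L13 were each lost with siNC replicate 2 left out (edgeR adjusted p from 0.0626 to 0.178). VDAC1 and TOMM7 also lost theirs with the length trend removed (edgeR adjusted p = 0.097 and 0.0691). Neither passed when scaled by library size alone (edgeR adjusted p = 0.065 and 0.0796), and TOMM7 did not in DESeq2 (adjusted p = 0.283).

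In the list of other core genes 2 of 15 rose and 0 fell (13.3% and 0%, against 6.47% and 7.84% of all tested genes). The 2 were WDR45 (0.30, SE 0.07, edgeR adjusted p = 0.00844), a relative of WIPI1, and RUBCN (0.22, SE 0.06, 0.0251), which restrains the UVRAG complex. Leaving out siNC replicate 3 ended the call of WDR45 (edgeR adjusted p = 0.0559), and RUBCN lost its own without either of siC1QBP replicates 2 and 3 or siNC replicates 2 and 3 (0.0504 to 0.134). Of 13 other selective autophagy receptors, RTN3 rose by 0.19 and TOLLIP fell by 0.18 (edgeR adjusted p = 0.00689 and 0.0380). That is 7.69% each way, close to the 6.47% higher and 7.84% lower of all tested genes. RTN3 lost its call without siNC replicate 3 and TOLLIP without any of siC1QBP replicates 1 and 2 and siNC replicates 2 and 3. None of 15 genes for fusion of the autophagosome with the lysosome passed in edgeR (1 had an unadjusted p under 0.05, PLEKHM1). YKT6, a SNARE of the fusion step with the highest siNC mean of them in CPM, was at 294 to 305 against 304 to 321 CPM. Per kilobase RAB7A was higher than YKT6 (110.5 against 84.0 CPM per kilobase in siNC). Among 10 other regulators of autophagy transcription only PPARA was called (10% higher, against 6.47% of all tested genes). It was higher by 0.29 on the log2 scale (41.0 ± 1.17 CPM in siNC and 50.2 ± 2.52 CPM in siC1QBP, SD, n = 3, adjusted p of 0.00471 in edgeR).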

How the data were processed

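RNA was measured in 6 libraries made with a strand-marking kit, per the labels' protocols. The values the authors deposited are counts of each gene, whole and not normalized. The submitters' processing notes name hg38; the aligner and counter, and whether strand was used, were not given in the sources used here. The deposited gene length column (other unit, in bases) equals merged GENCODE release 29 exons for all 42 members, and all 58735 genes match that release by ID, coordinates and strand. Totals were 17122252 to 20416243 counts per library, so a count of 0 allows up to 0.147 to 0.175 CPM (3 counts; counting error only).

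The 15530 genes that passed filterByExpr were tested on TMM-scaled counts in edgeR 4.0.16 (R 4.3.3), by quasi-likelihood F tests of treatment, without covariates, adjusted by Benjamini-Hochberg; an adjusted p under 0.05 was a call. Intervals are 95%, from the fit's SE and degrees of freedom. Libraries within a group differed by 2.09 to 6.77 chi-square per degree of freedom (genes with at least 20 counts), so none was treated as a duplicate. Members with calls, with non-overlapping groups, or highest per kilobase in their role are named with values, as are, from each pathway list, up to 3 called genes of smallest p and 1 in the opposite direction, or the most abundant where none was called. Members and lists were chosen with earlier results of these data known. Alternatives were DESeq2 1.42.0, limma-voom (limma 3.58.1), other scalings and filters, each library left out (over the same genes), the replicate block, length trend removal and a stricter threshold; leaving out both libraries numbered 1, and the promoter motifs, were chosen after seeing the data. Some genes of the marker and pathway lists are not reported here.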

Additional observations from a re-analysis of the deposited data

How the results depend on the processing

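Over the 40 tested members and 17 alternatives, 584 single values kept their direction and their side of the threshold, 33 calls were lost, 36 were gained and 24 values changed sign, none of them called. The count of 2222 genes called became 1057 at an adjusted p under 0.01, and 1090 to 2607 with 1 library left out (lowest without siNC replicate 2, then 1193 without siNC replicate 3). The count of 5 members higher became 3 with DESeq2 or with every gene of at least 1 count, 9 with library size only or upper quartile scaling, 11 with a mean of at least 10 CPM or with both groups' libraries numbered 1 left out, 2 at an adjusted p under 0.01, and 1 to 7 with 1 library left out. Over all genes, 699 were called higher with DESeq2 and 992 with every gene of at least 1 count, against 1005 in the main test. These are 2.17% and 3.08% of 32169 genes, not of 15530, so they cannot be set beside the 6.47% of the main test. The share of all genes called higher moved in other alternatives too. It was 8.07% with library size only, 8.24% with upper quartile scaling and 10.8% with a mean of at least 10 CPM. With both libraries numbered 1 left out it was 9.03%, and with 1 library left out 3.36% to 7.30%. The count of 3 lower became 5 with both libraries numbered 1 left out, 1 at an adjusted p under 0.01 and 1 to 4 with 1 library left out. Over all genes the share lower was 12.4% with both libraries numbered 1 left out and 3.66% to 9.48% with 1 library left out. The members' median log2 fold change of 0.0887 became 0.0522 with the length trend removed, and 0.0570 to 0.0947 with 1 library left out (lowest without siC1QBP replicate 1). C1QBP kept its direction and call under each alternative. The same replicate numbers stand in both groups, but same-numbered libraries deviated together only weakly (correlations 0.07, 0.04 and 0.01 across genes), and not every library correlated best with its own number, so the numbers were not taken as pairs. With the replicate block, 8 members were higher and 4 lower, and 3092 genes were called.

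Signs changed in 8 members, none of them called. For 6 of these the log2 fold change was between -0.01 and 0.03, while ATG2B had 0.09 and TFEB 0.09. With the length trend removed RB1CC1 became -0.0272, AMBRA1 -0.0106, ATG2B -0.0008 and ATG7 -0.0441. With every gene of at least 1 count PIK3R4 became -0.0026 and ATG7 -0.0051. ATG5 became 0.0147 with library size only, 0.0165 with upper quartile scaling and 0.0111 with a mean of at least 10 CPM. With both libraries numbered 1 left out RB1CC1 became -0.04, ATG9A -0.0683 and ATG7 -0.0012. With 1 library left out RB1CC1 ranged from -0.0348 to 0.0436, PIK3R4 from -0.0174 to 0.0541, ATG9A from -0.0571 to 0.0723, ATG5 from -0.04 to 0.0279, ATG7 from -0.03 to 0.0637 and TFEB from -0.0619 to 0.2943. The cause of these shifts was not tested.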
